A study of Mus musculus with 6 samples.

Results

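The 61 mouse genes described here are the chemokines and chemokine receptors of an RNA-sequencing study of Dot1l in endothelial cells. They were taken by symbol, as the genes named Ccl, Cxcl, Xcl or Cx3cl (39 ligands) and Ccr, Cxcr, Xcr, Cx3cr or Ackr (22 receptors) with a number, out of 24421 genes in the count table. The ligands were 24 of the CC family, 13 of the CXC family and 2 of the XC and CX3C families, and the receptors were 18 typical and 4 atypical ones. Dot1l is the enzyme that methylates lysine 79 of histone H3, a mark found along the bodies of transcribed genes.

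The study had 6 libraries, 1 for each condition. A Cont library and a cKO-labelled library were of blood endothelial cells (BECs) sorted from the skin of E15.5 embryos as negative for F4/80, CD45 and Lyve1 and positive for CD31. Both carried the floxed alleles Dot1l 2f/2f. The Cont embryos lacked Tie2-Cre and are labelled wild type, and the cKO embryos carried it and are labelled Dot1l KO. RNA of 2 to 3 embryos was pooled for each. The Tie2 promoter drives Cre in endothelium and also in blood cells. The other 4 libraries were of cultured mouse cells transduced with lentivirus and sorted for green fluorescence, from 2 to 3 flasks each: the yolk sac BEC line CRL-2581 and the embryonic dermal LECs (lymphatic endothelial cells) C57-6064L. The OE-BEC and OE-LEC libraries received an activator (dCas9-VP64) with guides to the Dot1l promoter, and their Cont libraries received empty lentivirus. With 1 library per condition there is no spread between replicates and no test of a condition. Every comparison is of 2 libraries, and the intervals given are exact (Clopper-Pearson) 95% intervals of the reads, which cover counting error only.

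Chemokines are small secreted proteins that draw leukocytes along gradients through G protein-coupled receptors. Endothelium holds them on heparan sulfate at its surface, where rolling leukocytes meet them. Atypical receptors bind chemokines without the usual G protein signal and take them up, which shapes the gradient. Ligand families overlap in their receptors: Cxcl1 and Cxcl2 act on Cxcr2 and draw neutrophils, Cxcl9 and Cxcl10 act on Cxcr3, Ccl2 acts on Ccr2 and draws monocytes, and Cxcl12 acts on Cxcr4 and is scavenged by Ackr3.

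The libraries held 8863349 to 31032461 reads, so that 3 reads, the floor used here, were 0.0967 to 0.338 reads per 1000000 (CPM). The targeted gene did not separate the skin libraries. Dot1l had 762 reads in Cont and 944 in the cKO-labelled library, a log2 ratio of -0.07 (-0.21 to 0.07), and the fragment the deletion removes cannot be seen in a count per gene. The paper itself reported RT-qPCR of Dot1l as its check of the knockout (n = 1). In culture Dot1l was higher in both OE libraries, with log2 ratios of 1.48 (1.40 to 1.55) in OE-BECs and 1.20 (1.13 to 1.27) in OE-LECs. Labels and markers differed elsewhere too. Of 8 lymphatic endothelial markers, Prox1 and Pdpn had 0 reads in both libraries labelled LEC and Reln and Mmrn1 had at most 1, whereas Lyve1 (52184 reads in Cont LECs, 60898 in OE-LECs), Nrp2 (5232 and 7646), Flt4 (2785 and 4038) and Sox18 (1281 and 477) were read. The 8 summed to 2354.1 and 2354.3 CPM there, against 1026.5 in Cont cultured BECs and 1381.6 in OE-BECs, which also lacked Prox1. Despite the sort, the skin libraries held Adgre1, which encodes F4/80 (1719 reads in Cont and 3411 in the cKO-labelled library), Ptprc, which encodes CD45 (1206 and 2340), and Lyve1 (9105 and 19959). All 12 blood endothelial markers had reads in all 6 libraries, with sums of 4744 to 7625 CPM.

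Of the 61 genes, 38 reached 20 reads in at least 1 library (21 ligands and 17 receptors), 16 had 1 to 19 reads at most, and 7 had no reads at all (Ccl19, Ccl21a, Ccl21b, Ccl21c, Ccl22, Ccl27b and Cxcl13). Ccl19 and the Ccl21 genes encode the ligands of Ccr7 that guide dendritic cells and lymphocytes into lymphatic vessels. Their absence holds for the libraries labelled LEC as for the rest, and the Ccl21 and Ccl27 genes are near-identical copies whose reads the counting could leave unassigned. Skin gave reads on more members (47 in Cont and 49 in the cKO-labelled library) than culture did (29 and 30 in Cont BECs and OE-BECs, 27 and 33 in Cont LECs and OE-LECs), although the cultured libraries were deeper. Skin also gave reads on more of all 24421 genes. These were 17760 and 18027 in skin, 15353 and 15808 in Cont BECs and OE-BECs, and 15016 and 15529 in Cont LECs and OE-LECs.

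Skin and culture differed in which members they held. Over the floor in all 6 libraries were 9 ligands (Ccl2, Ccl7, Ccl25, Cxcl1, Cxcl2, Cxcl10, Cxcl12, Cxcl16 and Cx3cl1) and 3 receptors (Ackr3, Cxcr2 and Cxcr5). In both skin libraries but in no cultured one, 9 ligands (Ccl3, Ccl6, Ccl9, Ccl11, Ccl12, Ccl24, Ccl26, Cxcl3 and Cxcl14) and 6 receptors (Ackr2, Ccr2, Ccr6, Ccr8, Ccr9 and Cxcr4) were over the floor. Some of these had reads in culture, at or under the floor. Over the floor only in culture were Ccl5 and Xcl1 among the ligands and Ccr4 and Cxcr1 among the receptors, of which only Ccl5 passed 5 reads. The same split over all genes was not counted. The 13 macrophage markers summed to 4124 and 6477 CPM in the skin libraries and to 118.5 to 245.2 CPM in culture, where Adgre1, C1qa, C1qb, C1qc and Cd163 were at 0 in all 4 libraries. What the macrophage markers contribute to the members over the floor only in skin was not tested, and in such bulk samples fewer cells of a type and less RNA per cell cannot be told apart.

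**Figure D1:**
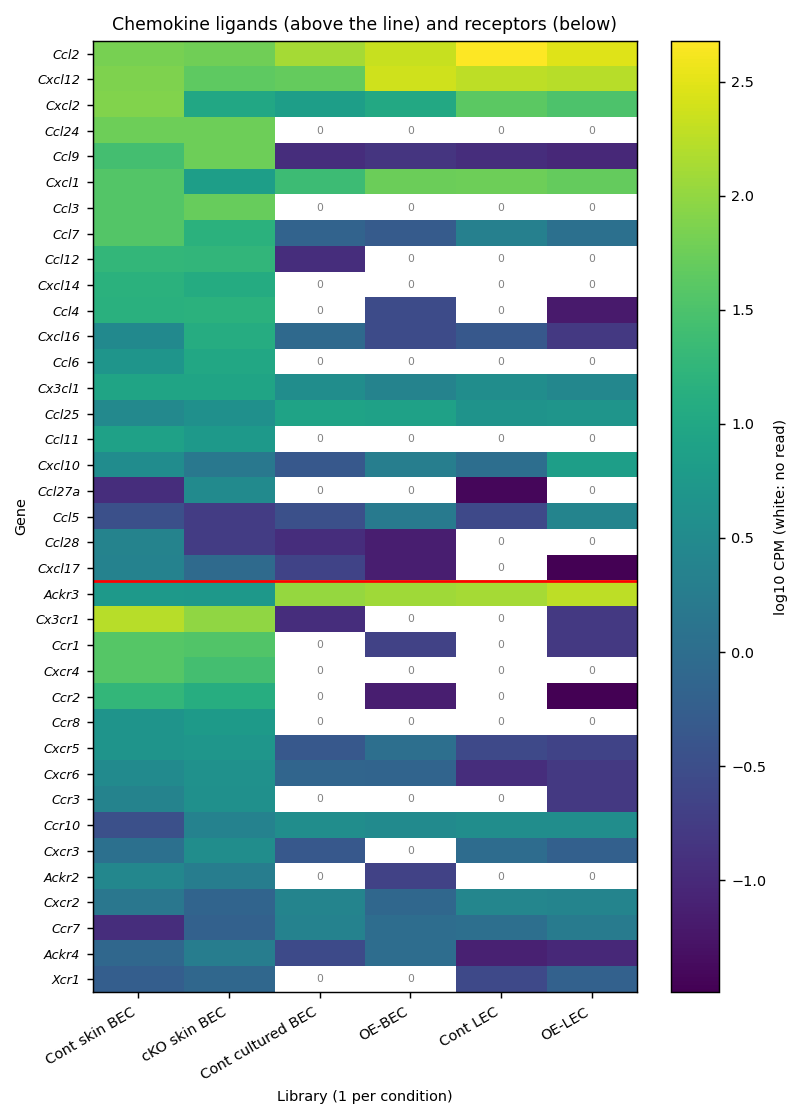
Level of 37 members with at least 20 reads in some library, as log10 CPM (colour) in the 6 libraries (columns), with 21 ligands above the red line and 16 receptors below it. White cells marked 0 had no reads. Ccl2, Cxcl12 and Ackr3 are bright in all cultured libraries, while Ccl24, Ccl3 and Cxcr4 are bright in the skin libraries and white in 4 of 4 cultured ones.

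In culture a small group of ligands held nearly all the ligand reads. Ccl2, Cxcl1, Cxcl2 and Cxcl12 together made up 93.2% of ligand reads in Cont BECs (97.1% in OE-BECs) and 98.4% in Cont LECs (96.7% in OE-LECs), against 51.1% in Cont skin BECs and 30.1% in the cKO-labelled library. Compared between genes per length, as CPM per kb of exon, Ccl2 stood first among the ligands of every cultured library, with Cont BECs at 116 (111 to 121), OE-BECs at 190 (183 to 196), Cont LECs at 421 (414 to 428) and OE-LECs at 264 (258 to 269). Cxcl1, Cxcl12 and Cxcl2 came next in each. In OE-BECs Cxcl1 (29.9, 27.8 to 32.0) and Cxcl12 (29.1, 28.1 to 30.1) had overlapping intervals. In Cont skin BECs Ccl2 led with 58.3 (53.7 to 63.2) CPM per kb, followed by Ccl3 (47.0, 42.0 to 52.4), Ccl7 (45.8, 40.9 to 51.0) and Ccl24 (44.9, 41.1 to 48.9), the last 3 of which overlapped. In the cKO-labelled library Ccl3 stood first with 66.2 (60.8 to 71.9), ahead of Ccl2 with 52.2 (48.3 to 56.4).

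One receptor dominated each setting. Cx3cr1, the fractalkine receptor that marks monocytes and many tissue macrophages, took 56.0% of receptor reads in Cont skin BECs and 42.1% in the cKO-labelled library. It stood first there per length too, at 38.2 (36.3 to 40.2) and 21.5 (20.2 to 22.8) CPM per kb, ahead of Cxcr4 and Ccr1. In culture Ackr3 took 90.5% to 94.6% of receptor reads, and its 31.0 to 55.3 CPM per kb compared with 1.83 to 2.11 for Ccr10, the next. The only other receptors with at least 20 reads in a cultured library were Cxcr2, Cxcr3, Ccr7 and Xcr1.

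Cxcl12, which keeps progenitors and leukocytes in place and guides vessel growth, was read beside its receptors. Cxcl12 had 672 reads (75.8 CPM, 70.2 to 81.8) in Cont skin BECs, 482 (43.5) in the cKO-labelled library, then 873 (49.4) for Cont cultured BECs, 3317 (238.1) for OE-BECs, 4890 (187.2) for Cont LECs and 5260 (169.5) for OE-LECs. The scavenger Ackr3 had 52 (5.87 CPM), 59 (5.32), 1834 (103.7), 1683 (120.8), 3421 (131.0) and 5743 (185.1) reads in the same order. Cxcr4, the signalling receptor, had 338 (38.1 CPM) and 297 (26.8) reads in skin and 0 reads in each of the 4 cultured libraries, where the upper 95% limits were 0.209, 0.265, 0.141 and 0.119 CPM (Cont BECs, OE-BECs and the same order for LECs). The ligand was therefore read beside Ackr3 and without Cxcr4 in culture, and beside both in skin.

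**Figure D2:**
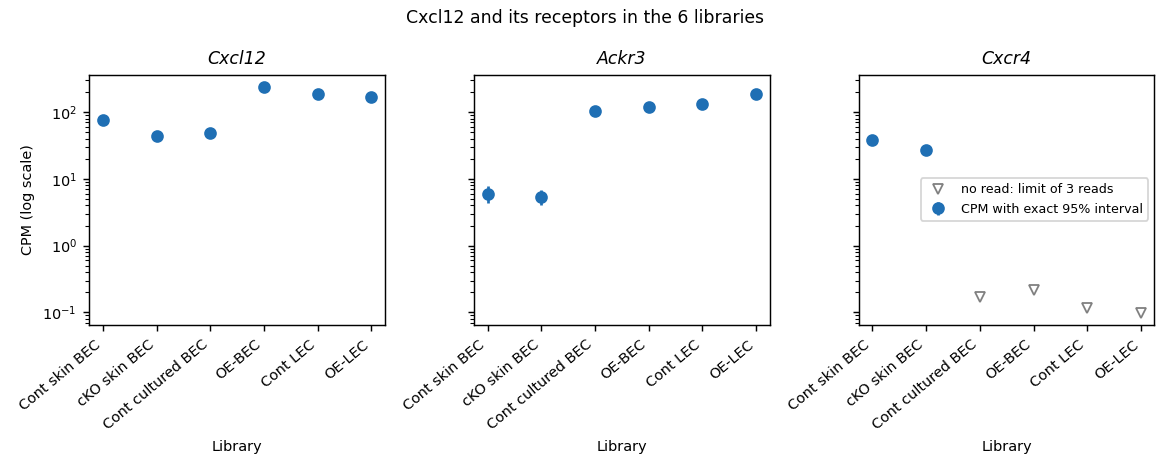
CPM (log scale) of the ligand Cxcl12, its scavenger Ackr3 and its receptor Cxcr4 in the 6 libraries, 1 point per library with its exact 95% interval of counting error, and an open triangle at the limit of 3 reads where there was no read. Ackr3 lies at 5.32 and 5.87 CPM in skin and above 100 CPM in culture, whereas Cxcr4 has points only in skin.

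The promoters of 4 ligands on which the comparisons turn are shown, since these ligands moved differently in skin, OE-BECs and OE-LECs. Each is the 250 bases before the transcript start in RefSeq (GRCm38.p6, the assembly of the mm10 build used for the counts), 5′ to 3′ on the strand of the gene. Cxcl1 lies on the plus strand at chr5:90890995-90891244, Cxcl2 on the plus strand at chr5:90903649-90903898, Cxcl10 on the minus strand at chr5:92348890-92349139 and Cxcl12 on the plus strand at chr6:117168285-117168534. Capitals mark the matches of 3 motifs searched on both strands: the NF-kB consensus, the core of the interferon-stimulated response element (GAAA, any 2 bases, GAAA) and the AP-1 site TGANTCA.
Cxcl1: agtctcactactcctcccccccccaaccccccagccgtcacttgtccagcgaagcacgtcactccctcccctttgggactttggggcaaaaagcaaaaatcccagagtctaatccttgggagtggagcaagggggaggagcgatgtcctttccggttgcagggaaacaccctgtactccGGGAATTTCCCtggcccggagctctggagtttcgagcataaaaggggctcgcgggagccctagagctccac
Cxcl2: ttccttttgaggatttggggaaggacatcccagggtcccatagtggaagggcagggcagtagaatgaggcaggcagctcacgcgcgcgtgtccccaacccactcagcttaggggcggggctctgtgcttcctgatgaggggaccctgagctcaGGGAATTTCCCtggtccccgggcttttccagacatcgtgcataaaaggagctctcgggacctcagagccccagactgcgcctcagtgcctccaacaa
Cxcl10: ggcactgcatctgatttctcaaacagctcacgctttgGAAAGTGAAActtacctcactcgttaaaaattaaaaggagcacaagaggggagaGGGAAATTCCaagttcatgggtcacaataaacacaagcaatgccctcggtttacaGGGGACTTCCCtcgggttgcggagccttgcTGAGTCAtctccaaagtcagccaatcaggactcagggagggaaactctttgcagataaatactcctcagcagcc
Cxcl12: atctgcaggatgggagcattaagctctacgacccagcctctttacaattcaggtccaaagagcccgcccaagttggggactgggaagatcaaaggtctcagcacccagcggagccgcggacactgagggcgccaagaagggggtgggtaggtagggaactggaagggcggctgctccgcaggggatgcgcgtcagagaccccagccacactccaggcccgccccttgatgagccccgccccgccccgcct

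The NF-kB consensus was found once in each of the neighbouring genes Cxcl1 (71 to 61 bases before the start) and Cxcl2 (97 to 87 bases before it), in the same letters, counting overlapping matches on both strands as 1 place. Cxcl10 held it in 2 places (159 to 150 and 104 to 94 bases before the start), with the interferon element core (213 to 204) and the AP-1 site (74 to 68). None of the 3 motifs was found in the Cxcl12 window. Over 27025 genes with a promoter of this length, 8.23% held the NF-kB consensus, 3.46% the interferon element core and 7.82% the AP-1 site, and 11, 3 and 6 of the 45 members with a promoter in the table did. These are matches of letters and not sites shown to be bound.

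In the skin comparison (the cKO-labelled library against Cont) the neutrophil ligands Cxcl1 and Cxcl2 were lower, while Cxcl16, Ccl27a and the receptors Ccr10 and Cxcr3 were higher. A gene was called by the rule of the study's methods, which asks for a normalized count (reads divided by the size factor) of at least 5 in the higher library, exceeding the other by more than 3 times. Of the 61 members, 46 reached that minimum (26 ligands and 20 receptors). The rule called 8 higher, which is 17.4% of the 46 against 5.17% of all 15993 genes at the minimum, and 4 lower, 8.7% against 2.41%. By counting error alone, 10 members had an interval above 0, 21.7% against 22.8% of all genes, and 13 had one below 0, 28.3% against 25% of all genes. The median log2 ratio (1 added to both counts) was -0.04 over these members and 0.005 over all genes.

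The ligands of Cxcr2 had the largest differences among the abundant members. Cxcl2 had 689 reads (77.7 CPM) in Cont and 112 (10.1 CPM) in the cKO-labelled library, 7.99 times fewer after normalization, a log2 ratio of -3.00 (-3.30 to -2.71). Cxcl1 had 321 (36.2 CPM) and 78 (7.04 CPM) reads, a log2 ratio of -2.42 (-2.79 to -2.06). Their receptor Cxcr2, which neutrophils carry, had 13 and 8 reads, too few to separate the libraries (log2 ratio -1.08, -2.56 to 0.30). The other genes of the same cluster on chromosome 5 (90759360 to 90905938) were close to unread: Cxcl3 had 4 and 6 reads, Cxcl5 had 1 and 2, and Cxcl15 had none. Ccl28, a mucosal chemokine that acts on Ccr10 and Ccr3, had 21 and 2 reads, a log2 ratio of -3.77 (-6.91 to -1.74). The fourth member called lower, Ackr1, the scavenger of venular endothelium, had 9 and 1 reads (-3.55, -9.0 to -0.7), and 25.7% of its exon bases overlap those of Cadm3 on the same strand.

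The CC ligands of monocytes did not move as a block. Ccl2 had 588 and 659 reads, a log2 ratio of -0.21 (-0.38 to -0.05), while its neighbour Ccl7, which acts on Ccr1, Ccr2 and Ccr3, had 325 and 167, a log2 ratio of -1.34 (-1.62 to -1.06) that did not reach the rule. Ccl12 (167 and 197 reads) and Ccl24 (515 and 638), an eosinophil attractant made by macrophages, had intervals that held 0. In the next cluster of chromosome 11 (83525778 to 83664683) Ccl9 (243 and 638 reads, 1.01, 0.80 to 1.23), Ccl6 (42 and 112, 1.04, 0.51 to 1.58) and Ccl3 (319 and 562, 0.44, 0.24 to 0.64) were higher and Ccl4 (128 and 165, -0.01, -0.35 to 0.33) was not separated. Ccr1, a receptor of Ccl3, Ccl6 and Ccl9, had 342 and 394 (-0.17, -0.39 to 0.04). Ccr2, the receptor of Ccl2, Ccl7 and Ccl12, had 168 and 141 (-0.63, -0.96 to -0.30). None of these passed the limit of 3 times.

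Among the members called higher by the rule, Cxcl16 had the most reads. Cxcl16 is a membrane-bound ligand of Cxcr6 that also takes up oxidized lipoprotein. It had 27 reads (3.05 CPM) in Cont and 137 (12.4 CPM) in the cKO-labelled library, 3.90 times more, a log2 ratio of 1.97 (1.36 to 2.62). Its gene overlaps Zmynd15 on the other strand over 18.3% of its exon bases. Its receptor Cxcr6 had 28 and 46 reads (0.34, -0.37 to 1.07). Ccl27a, the chemokine of keratinocytes that draws T cells to skin, had 1 and 35 reads (4.75, 2.18 to 10.1), and its receptor Ccr10 had 3 and 25 (2.68, 0.97 to 5.05). Ligand and receptor of that pair were thus both higher, each from a Cont count at or under the floor, whereas Ccl28, the other ligand of Ccr10, was lower.

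The Cxcr3 family did not move together. The receptor had 10 and 40 reads (1.62, 0.60 to 2.79) and its ligand Cxcl9 had 2 and 15 (2.53, 0.42 to 5.70), both called higher. Cxcl10, a second interferon-induced ligand next to Cxcl9 on chromosome 5, had 31 and 17 (-1.24, -2.19 to -0.35), and Cxcl11 had none. Cxcr3 passed the limit at 3.08 times and was no longer called when 1 was added to both counts. The remaining members called higher had few reads. Ccl1 had 3 and 17 (2.12, 0.33 to 4.54), Ccr7 had 1 and 7 and Ccl8 had 0 and 6, and the intervals of Ccr7 and Ccl8 held 0.

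Abundant receptors of skin were lower or not separated. Cx3cr1 had 1527 and 1072 reads (-0.89, -1.0 to -0.77), and its ligand Cx3cl1, which endothelium displays as a tethered stalk, had 79 and 96 (-0.10, -0.54 to 0.35). Cxcr4 (-0.56, -0.79 to -0.34) and Cxcl12 (-0.86, -1.03 to -0.69) were both lower, by less than 3 times, and Ackr3 was not separated (52 and 59 reads, -0.20, -0.76 to 0.37). Of the rest with at least 20 reads, Cxcl14 (133 and 134 reads, -0.37, -0.72 to -0.01) and Cxcl17 (20 and 10, -1.38, -2.64 to -0.22) were lower by their intervals. The intervals of Ccl11, Ccl25, Ackr2, Ackr4, Ccr3, Ccr8 and Cxcr5 held 0, with 7 to 69 reads in each library.

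Marker genes of other cells moved in the same pair of libraries. The 13 macrophage markers summed to 4124 CPM in Cont and 6477 in the cKO-labelled library, with 12 of 13 higher and none called by the rule. The 12 blood endothelial markers summed to 7476 and 4744 CPM, with 11 of 12 lower and none called. The 9 keratinocyte markers summed to 251.9 and 391.7 CPM, with 5 higher and 4 lower, and with Krt1 (33 and 254 reads) and Krt10 (51 and 263) called higher. The 8 mast cell markers summed to 2861 and 4059 CPM, with 7 higher and 1 lower. The 8 lymphatic markers summed to 3679 and 3827 CPM, although 6 of them were lower (median log2 ratio -0.31) and 2 higher, Lyve1 among these. The 8 neutrophil and monocyte markers summed to 35.3 and 87.4 CPM, with Csf3r (30 and 117 reads) called higher and S100a8 (11 and 4) and Mpo (26 and 4) lower. Of the 5 with 10 reads or more in the pair, 2 were higher and 3 lower (median log2 ratio -0.85). The 8 dendritic and Langerhans markers summed to 77.8 and 91.5 CPM, with Cd207 at 0 and Itgax (1 and 25 reads) and H2-Ab1 (31 and 126) called higher. The 8 T and NK markers summed to 24.1 and 30.8 CPM, with Ncr1 at 0 and Cd3e (39 and 1 reads) and Cd3g called lower. Of the 4 with 10 reads or more, 1 was higher and 3 were lower (median log2 ratio -0.89). The 8 fibroblast markers summed to 2537 and 1870 CPM and the 8 pericyte and smooth muscle markers to 848.4 and 719.2. The part of these cells in the chemokine differences was not tested.

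In OE-BECs Cxcl12 was 4.95 times higher, and Ccl5 and Cxcl10 were called higher from few reads. Here and in OE-LECs the minimum of the rule was 3 normalized counts, which 26 members reached (13 ligands and 13 receptors). The rule called 8 of them higher, 30.8% against 8.02% of all 14792 genes, and 3 lower, 11.5% against 5.27%. By the intervals, 9 were above 0, 34.6% against 26.3% of all genes, and 3 were below, 11.5% against 27.5%. The median log2 ratio was 0.454 over these members, 0.747 over the ligands and 0.287 over the receptors, against 0.008 over all genes. These members include Xcl1, Ccl4, Ackr2 and Ccr1, which had 0 reads in Cont BECs and reached the minimum through OE-BECs only. Cxcr3, with 0 reads in OE-BECs, reached it through Cont BECs only. The medians therefore cannot show whether the members rose as a group.

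Other genes moved in the same pair of libraries. The ribosomal RNA gene Rn45s had 59087 CPM in Cont BECs and 108864 CPM in OE-BECs (log2 ratio 0.92), against 534 and 632 CPM in the LEC pair. The 12 blood endothelial markers summed to 7625 and 4796 CPM, with 11 of 12 below 0 by their intervals and Flt1 (5099 and 888 reads) and Vwf (3606 and 610) called lower. Kit (7018 and 1284 reads) and Hdc (72 and 17) of the mast cell list and Sox18 (1436 and 247) of the lymphatic list were also called lower. The macrophage markers summed to 118.5 and 130.2 CPM and the T and NK markers to 0 and 0.287. The part of these differences in the chemokine values was not tested.

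Cxcl12 went from 873 reads (49.4 CPM) in Cont BECs to 3317 (238.1 CPM) in OE-BECs, 4.95 times more, a log2 ratio of 2.31 (2.20 to 2.42). With this it passed Ccl2 in reads and made up 44.4% of ligand reads, where Ccl2 had made up 58.0% in Cont BECs. Per length Ccl2 stayed above it. Its scavenger Ackr3 had 1834 and 1683 reads, a log2 ratio of 0.26 (0.16 to 0.36), and its receptor Cxcr4 had none in either library. Cxcl12 sits on chromosome 6 (117168535 to 117181367, plus strand) with no other member within 500 kb.

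Cxcl1 had 417 and 780 reads (1.29, 1.11 to 1.46), Ccl2 had 2335 and 3007 (0.75, 0.67 to 0.83) and Cxcl2 had 125 and 148 (0.63, 0.27 to 0.98), all higher and all under the limit of 3 times. Cxcr2, the receptor of Cxcl1 and Cxcl2, was lower, with 44 and 11 reads (-1.62, -2.72 to -0.64), 3.07 times, a call lost when 1 was added to both counts. Ccl5, which T cells, platelets and activated endothelium release and which acts on Ccr1 and Ccr3, had 6 and 24 reads (2.38, 1.05 to 3.96). Cxcl10 had 8 and 27 (2.14, 0.96 to 3.49), and its receptor Cxcr3 had 8 and 0, at least 1.31 times lower. Ccr1 and Ccr3 were at or under 3 reads in both BEC libraries.

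The other calls in OE-BECs rested on few reads. Ackr4, the scavenger of Ccl19, Ccl21 and Ccl25, had 5 and 14 (1.87, 0.31 to 3.70), and 8.9% of its exon bases overlap Acad11 on the other strand. Xcl1 had 0 and 5, at least 1.19 times higher, and overlaps another transcript over 18.7% of its exon bases. Ccl4 (0 and 4), Ackr2 (0 and 3), Ccr1 (0 and 3) and Cxcl17 (4 and 1) had intervals that held 0. Ccr7, with 41 and 14 reads (-1.17, -2.16 to -0.26), was lower by its interval only. Ccl25 (152 and 110 reads), Cx3cl1 (64 and 33) and Ccr10 (64 and 44) were not separated.

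In OE-LECs a pair of ligands stood out as higher, Ccl5 and Cxcl10, while the abundant Ccl2, Cxcl1, Cxcl2 and Cxcl12 were 1.09 to 1.58 times lower. At the minimum were 24 members (11 ligands and 13 receptors). The rule called 5 higher, 20.8% against 2.77% of all 13883 genes, and 0 lower, against 2.09% of all genes. By the intervals, 4 were above 0, 16.7% against 22.8% of all genes, and 5 were below, 20.8% against 20.2%. All 5 below were ligands. The median log2 ratio was -0.035 over these members, -0.186 over the ligands and 0.516 over the receptors, against 0.003 over all genes. The receptors include Ccr1, Ccr3 and Cx3cr1, which had 0 reads in Cont LECs and reached the minimum through OE-LECs only. The median of the receptors therefore cannot show whether they rose as a group. In this pair the 12 blood endothelial markers summed to 6362 and 5894 CPM, with 3 higher, 9 lower and Vwf (824 and 260 reads) called lower. Kit (5756 and 2034) of the mast cell list and Sox18 of the lymphatic list were called lower, while Hdc of the mast cell list was called higher. The part of these differences in the chemokine values was not tested.

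Ccl5 had 7 reads (0.268 CPM) in Cont LECs against 76 (2.45 CPM) in OE-LECs, 9.25 times more, a log2 ratio of 3.21 (2.10 to 4.57). Cxcl10 had 27 (1.03 CPM) and 221 (7.12 CPM) reads, 6.97 times more, a log2 ratio of 2.80 (2.22 to 3.44), and Art3 on the other strand overlaps 5.9% of its exon bases. The receptors of these ligands gave little. Cxcr3 had 25 and 19 reads (-0.63, -1.57 to 0.29). Ccr1, Ccr3 and Cx3cr1 each had 5 reads in OE-LECs against 0 for Cont LECs, which the rule called higher although their intervals held 0.

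Ccl2, the leading ligand, had 12515 reads (479.2 CPM) in Cont LECs against 9310 (300.0 CPM) in OE-LECs, a log2 ratio of -0.66 (-0.70 to -0.62). Its neighbour Ccl7 had 55 and 34 reads (-0.92, -1.59 to -0.28). Cxcl2 (1117 and 1016 reads, -0.37, -0.49 to -0.24), Cxcl1 (1491 and 1538, -0.19, -0.29 to -0.08) and Cxcl12 (4890 and 5260, -0.13, -0.18 to -0.07) were within 1.29 times of their Cont values. Ackr3 had 3421 and 5743 reads (0.52, 0.46 to 0.58) and Ccr7 had 28 and 55 (0.74, 0.06 to 1.45), both higher by their intervals only. Ccl25, Ccr10, Cxcr2 and Xcr1 had intervals that held 0.

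**Figure D3:**
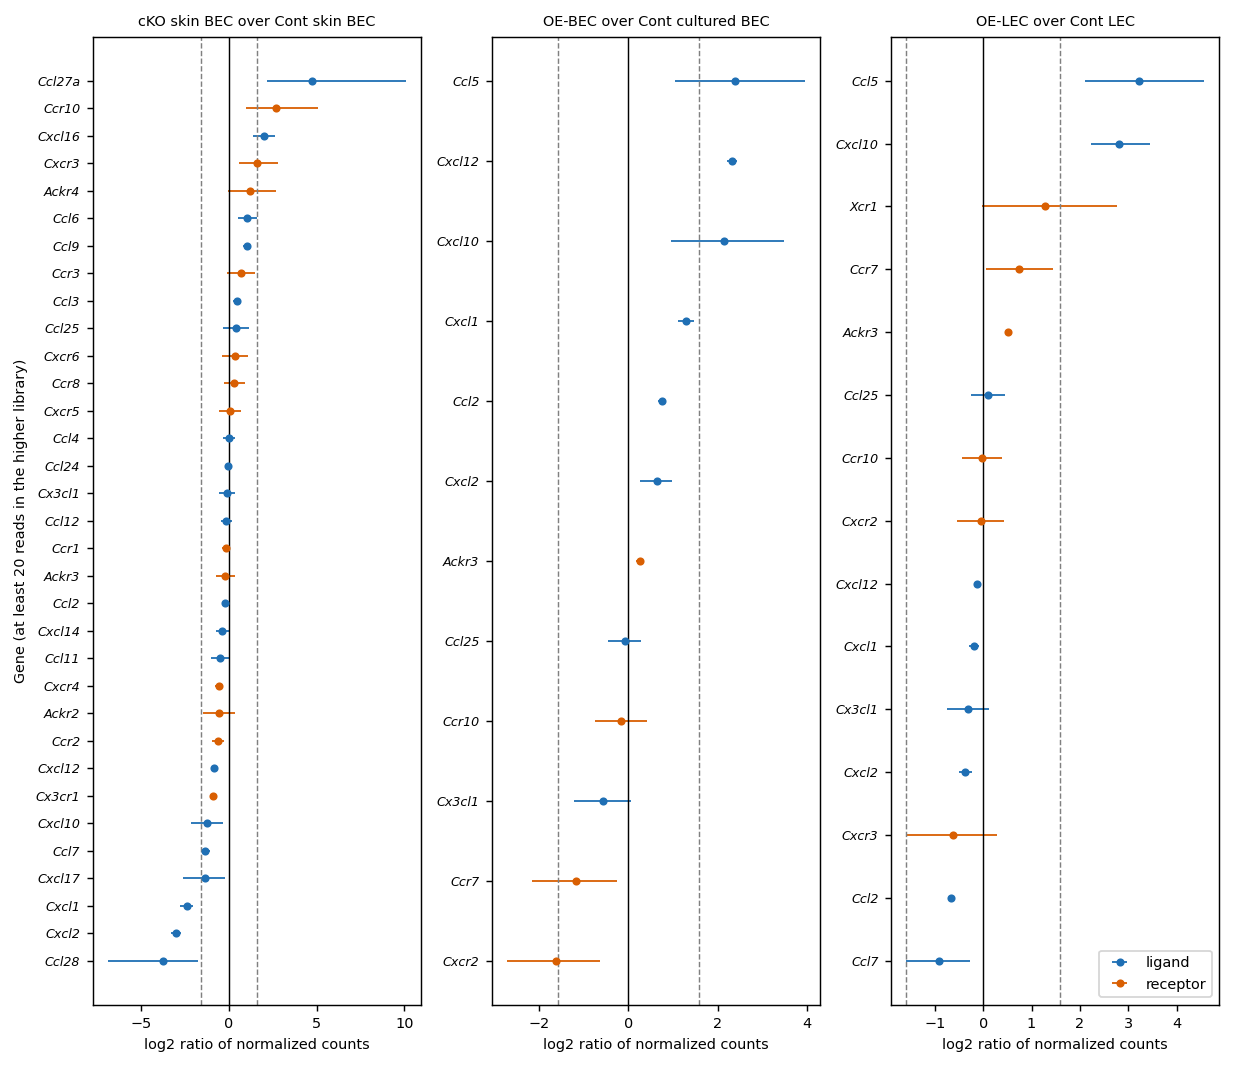
Log2 ratio of normalized counts (changed library over its control) for the members reported here with at least 20 reads in the higher library, in the 3 comparisons, with exact 95% intervals of counting error, ligands in blue and receptors in orange. Dashed lines mark 3 times. Ccl28, Cxcl2 and Cxcl1 lie beyond the lower line in the skin panel, Ccl5, Cxcl12 and Cxcl10 beyond the upper line in the OE-BEC panel, and only Ccl5 and Cxcl10 beyond it in the OE-LEC panel.

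Set side by side, the comparisons gave the same ligands different values. The log2 ratio of Cxcl12 was -0.86 in skin, 2.31 in OE-BECs and -0.13 in OE-LECs. That of Cxcl1 was -2.42, 1.29 and -0.19, and that of Cxcl2 was -3.00, 0.63 and -0.37. Cxcl10 had -1.24 in skin and 2.14 and 2.80 in the OE libraries. Ccl5 had 3 and 2 reads in skin, too few for a ratio, and was higher in both OE libraries. Ccl7 was lower in skin (-1.34) and in OE-LECs (-0.92) and was not separated in OE-BECs (12 and 7 reads, -0.39, -1.98 to 1.07). Each ratio has its own control library, and the differences between comparisons were not tested.

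**Figure D4:**
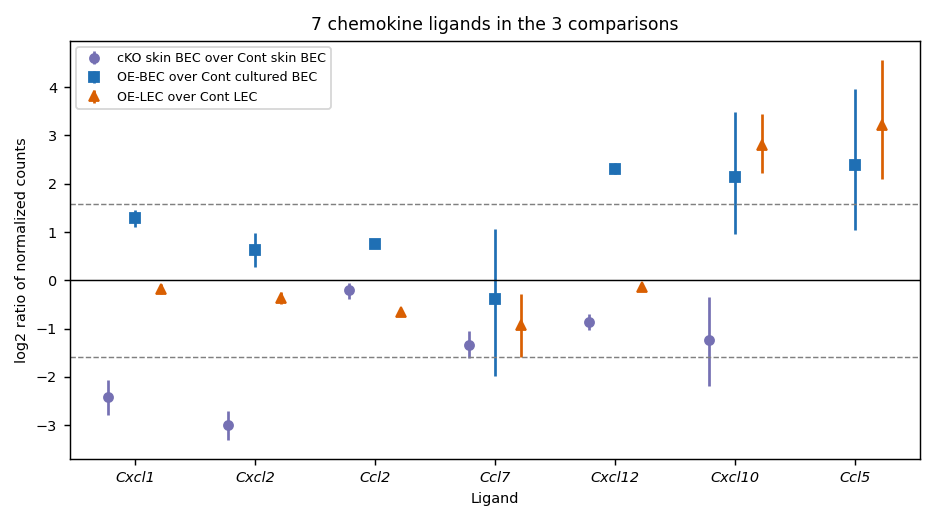
Log2 ratio of normalized counts of 7 ligands in the 3 comparisons (circles for the cKO-labelled library over Cont skin BECs, squares for OE-BECs, triangles for OE-LECs), with exact 95% intervals of counting error and dashed lines at 3 times. Cxcl1 and Cxcl2 lie below the lower line in skin only, and Ccl5 and Cxcl10 lie above the upper line in both OE comparisons. Ccl5, with at most 3 reads in skin, has no circle.

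The genes that induce chemokines were read from lists. Intervals that leave out 0 were common among all genes at the minimum of the rule. For the skin pair 22.8% of these lay above 0 and 25% below. The BEC pair had 26.3% above and 27.5% below, and the LEC pair had 22.8% above and 20.2% below. Genes with more reads have narrower intervals. Whether the list counts here and below exceed those of genes with similar reads was not tested. Of 23 genes of NF-kB induction, the main route by which inflammatory cytokines switch on Cxcl1, Cxcl2 and Ccl2, 5 had an interval above 0 and 11 one below 0 in the cKO-labelled library, with a median log2 ratio of -0.26 against 0.00 over 15554 genes (10 reads or more in that pair). The cytokines Il1b (77 and 15 reads, -2.74, -3.64 to -1.93) and Il6 (78 and 22, -2.20, -2.96 to -1.51) were called lower there. Il1a (2 and 28 reads, 3.43, 1.44 to 6.54) was called higher, and Nfkb1 was not separated (-0.09, -0.21 to 0.03). In culture no gene of that list with at least 10 reads was called, with intervals above 0 for 3 and below 0 for 7 of 20 genes in OE-BECs (median -0.13 against -0.01 over all genes) and for 6 and 7 of 20 in OE-LECs (median 0.00). The part of these genes in the ligand values was not tested.

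Of 13 genes of interferon induction, the route to Cxcl9 and Cxcl10, 10 had an interval above 0 and 1 below 0 in OE-LECs, with a median log2 ratio of 0.64, against 0.00 over 13028 genes. Irf7 (766 and 5679 reads, 2.66, 2.55 to 2.77), the transcription factor that amplifies the interferon response, and Isg15 (454 and 2639, 2.31, 2.16 to 2.46), a ubiquitin-like target of it, were called higher. Ifih1, a sensor of viral RNA (870 and 3023, 1.57, 1.46 to 1.68), was higher without reaching 3 times. Cxcl9 and Cxcl11 each had 1 read in Cont LECs and 0 in OE-LECs. In OE-BECs 2 of the 13 had an interval above 0 and 8 one below 0, none was called and the median was -0.23 (all genes -0.01), with Isg15 at -0.10 (-0.37 to 0.17). In the cKO-labelled library 1 was above 0 and 4 were below 0 (median -0.14), and Irf1 (1116 and 429 reads, -1.76, -1.92 to -1.60) was called lower. Whether the interferon genes had a part in the ligand values was not tested.

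Downstream of the receptors, 30 signalling genes gave no call in skin (12 intervals above 0 and 11 below, median 0.02). In OE-BECs 10 of 24 were above 0 and 9 below (median -0.05). Pik3r5, a subunit of the phosphoinositide kinase that G proteins switch on (19 and 54 reads, 1.89), and Ptk2b (3 and 14, 2.61) were called higher. Prex1, an exchange factor for Rac (1885 and 245 reads, -2.56, -2.76 to -2.37), and Rgs2, which shortens G protein signals (4018 and 963, -1.68, -1.78 to -1.58), were called lower. In OE-LECs 5 of 23 were above 0 and 11 below (median -0.07), and Pik3r5 was again called higher (40 and 148, 1.66). Of the genes that build or trim the heparan sulfate on which chemokines are held, 6 of 20 had an interval above 0 and 7 one below 0 in skin, with no call (median 0.02). In OE-BECs 8 of 16 were above 0 and 5 below, with no call (median 0.17 against -0.01 over all genes). In OE-LECs 9 of 16 were above 0 and 1 below (median 0.22 against 0.00), and Sulf1, which removes sulfate from those chains, was called higher (429 and 1560, 1.63, 1.48 to 1.79).

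Chemokine family genes with other names were also read. Pf4, the platelet chemokine of the CXC family that macrophages also make, had 1331 reads (150.2 CPM) in Cont skin BECs and 3118 (281.3 CPM) in the cKO-labelled library (0.85, 0.76 to 0.94). In OE-BECs Gpr35 was called higher (4 and 13 reads) and Gpr182, an endothelial scavenger of chemokines (71 and 10, -2.44, -3.57 to -1.48), and Cmklr1, the chemerin receptor (13 and 1), were called lower. In OE-LECs Gpr182 was called lower as well (175 and 52, -1.98, -2.46 to -1.53). No gene of this list was called in skin.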

How the data were processed

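RNA-seq libraries were made by the authors with the ScriptSeq v2 kit, trimmed with skewer, aligned to mm10 with STAR and counted per gene with VERSE. Whether reads on the other strand were left out is not established here. The authors deposited raw read counts, not normalized. The members and gene lists were chosen with earlier results of these data known.

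Counts of the 2 libraries of each comparison were normalized together by the median of ratios of DESeq2 1.42.0 (R 4.3.3), giving size factors of 0.877 and 1.14 (Cont and the cKO-labelled library), 1.14 and 0.876 (BECs), and 0.923 and 1.08 (LECs). CPM used the total count of a library. Genes were called by the rule of the study's methods (minimum 5 in skin, 3 in culture, more than 3 times). The 95% interval of a log2 ratio is exact (Clopper-Pearson) on the share of both libraries' reads. Reads carried no molecular identifier and may be PCR copies, so intervals and floors cover counting error only. Against 0 reads, "at least" uses the smaller of the ratio to 3 reads and the nearer interval limit, and with 1 to 3 reads the ratio is given with its interval. Members with at least 20 reads in some library are named with their values. A few genes are counted but not reported here by name. Of the lists, the genes called with the most reads are named, and other list genes and members under 20 reads that are given were chosen after their values were seen. List counts cover genes with a sum of 10 or more reads over both libraries.

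Positions, exon lengths and overlaps came from GENCODE M21, which matched 60 of 61 members, and promoters from RefSeq, which matched 45. Python 3.11.15 with scipy 1.17.1 was used, and the steps were tested on simulated data. The alternatives were scaling over all 6 libraries, TMM factors (edgeR 4.0.16), total counts, other minimums, an interval that leaves out 0 and 1 added to both counts.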

Additional observations from a re-analysis of the deposited data

Results flagged for a closer look

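The 2 overexpression comparisons differed in direction for 5 members whose 95% counting intervals leave out 0 on opposite sides. How many of all genes did so was not counted. Of all genes at the minimum, 26.3% had an interval above 0 and 27.5% below in the BEC pair. In the LEC pair these shares were 22.8% and 20.2%. Cxcl12 and Cxcl1 were only 1.09 and 1.14 times lower in OE-LECs. The log2 ratio of Cxcl12 was 2.31 in OE-BECs and -0.13 in OE-LECs. That of Cxcl1 was 1.29 and -0.19, that of Cxcl2 was 0.63 and -0.37, and that of Ccl2 was 0.75 and -0.66. The receptor Ccr7 went the other way, with -1.17 in OE-BECs and 0.74 in OE-LECs. Each comparison has 1 library per condition, and the difference between the cell types was not tested. Cell source, culture and transduction cannot be told apart from cell type here.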

How the results depend on the processing

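No paired analysis was possible because each condition has 1 library, and no replicate could be left out. Scaling over all 6 libraries, TMM factors and total counts changed none of the 6 counts of called members by over 1.5 times, and the 61 log2 ratios of members with at least 20 reads in the higher library stayed inside their counting intervals under these scalings and with 1 added to both counts. The counts depended on the minimum and on counting error. In skin 8 members were called higher at the minimum of 5 and 4 at a minimum of 20. In OE-BECs 8 called higher became 5 at a minimum of 5, 3 at a minimum of 20 and 5 when the interval had to leave out 0. There 3 called lower became 1 at a minimum of 20, 7 with no minimum and 1 with 1 added to both counts. In OE-LECs 5 called higher became 2 at a minimum of 5, 2 at a minimum of 20, 2 when the interval had to leave out 0 and 11 with no minimum, and 0 called lower became 3 with no minimum. The changes under other minimums follow from members with few normalized counts passing or failing them, and Cxcr2 and Cxcl17 in OE-BECs fell under 3 times when 1 was added. Members with few reads have wide counting intervals, which limits what these depths can separate.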
